A study of Mus musculus with 24 samples.

Results

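Lymphodepletion is given before adoptive T cell transfer, and the question addressed here is whether monocytic and polymorphonuclear myeloid-derived suppressor cells (M-MDSCs and PMN-MDSCs) answered it differently in mice labelled as interleukin-6 (IL-6) knockouts. The quantity described is an interaction: the lymphodepletion change in M-MDSCs minus the lymphodepletion change in PMN-MDSCs. It was computed per gene on log2(normalized count + 1) from the 12 RNA-seq libraries labelled IL-6 KO, out of 24 libraries in the series. The gene table held 23479 genes, of which 12281 had at least 10 normalized counts in at least 3 of the 12 libraries and were tested. A positive interaction means that the M-MDSC change lay above the PMN-MDSC change, whatever the sign of either.

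All mice carried B16 melanoma, a transplanted mouse tumour line, grown past 25 mm2. The cells were sorted from spleens by flow cytometry, to a purity above 99% per the labels, 7 days after treatment. Lymphodepleted M-MDSCs (3 libraries) and untreated M-MDSCs (3 libraries) came from IL-6 KO mice of strain B6.129S2-Il6tm1Kopf/J, as did lymphodepleted PMN-MDSCs (3 libraries) and untreated PMN-MDSCs (3 libraries). Lymphodepleted mice received cyclophosphamide, an alkylating agent, with fludarabine, a purine analogue; untreated mice received neither. The Kopf allele is known as a germline disruption of Il6, and the 4 groups share the tumour, the organ and the labelled strain. The other 12 libraries have the same 4 groups from mice labelled wild type (WT). Nothing in the labels said whether M-MDSCs and PMN-MDSCs with the same number came from 1 mouse, or whether the libraries of a group came from separate animals, so p-values measure only the spread between these libraries, which may be technical.

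MDSCs are immature myeloid cells that build up in tumour-bearing hosts and restrain T cells. M-MDSCs resemble monocytes and can give rise to macrophages and dendritic cells, whereas PMN-MDSCs resemble neutrophils and carry granule proteins. IL-6 signals through its receptor and gp130 to the transcription factor STAT3, which supports the expansion of both kinds. Cyclophosphamide and fludarabine kill lymphocytes and dividing progenitors, and in the days of recovery the marrow releases young myeloid cells.

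The libraries held 4874429 to 10017014 gene reads each. Of these Rn45s, the ribosomal RNA precursor, made 2.94% to 19.8% and Malat1 1.55% to 5%. The Rn45s share was 19.8%, 16.3% and 8.5% in lymphodepleted and 6.07%, 7.66% and 11.1% in untreated M-MDSCs. In PMN-MDSCs it was 4.65%, 5.85% and 4.82% in lymphodepleted and 13.7%, 6.92% and 2.94% in untreated libraries. The first principal component, with 56.4% of the variance, separated the cell types. Ccr2, the chemokine receptor of classical monocytes, had 3366 to 6768 normalized counts in lymphodepleted M-MDSCs and 3746 to 5379 in untreated M-MDSCs, against 104 to 145 in lymphodepleted PMN-MDSCs and 32.1 to 189 in untreated PMN-MDSCs. Cxcr2, the chemokine receptor of neutrophils, was the reverse, with 20.9 to 38.9 and 2.64 to 20.9 in the lymphodepleted and untreated M-MDSCs, against 3310 to 6837 and 5561 to 7095 in the lymphodepleted and untreated PMN-MDSCs. These markers bore out the sorted cell types. Within their groups, untreated M-MDSC library 3 and lymphodepleted PMN-MDSC library 2 stood apart by higher cell division genes. Lymphodepleted PMN-MDSC library 2 and untreated PMN-MDSC library 3 stood apart by higher granule genes. Counts that rest on these libraries are given below with and without them. Untreated PMN-MDSC library 1 had the fewest reads (4874429), and 1 read there made 2.47 normalized counts, so its low values rest on few reads.

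Il6, the targeted gene, had 38.9, 16.2 and 45.3 normalized counts in the lymphodepleted M-MDSC libraries and 41.2, 38.3 and 33.3 in the untreated ones. In PMN-MDSCs it had 131, 64.5 and 203 in the lymphodepleted libraries and 158, 153 and 219.7 in the untreated ones. The 12 libraries labelled KO thus ranged from 16.2 to 219.7, and the 12 libraries labelled WT from 0 to 7.20, which goes against the labels if Il6 reads mark a working gene. A count over the whole gene does not show whether the reads cover the disrupted stretch, so it does not check the allele, and "labelled" is kept below wherever KO and WT are compared. The Il6 interaction was 0.26 ± 0.65 on the log2 scale (adjusted p = 0.954 in limma).

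Promoters of 3 kinds are shown for the genes described below, with no test of a link between sequence and expression: the promoter of Il18r1, the gene with the called interaction, those of 4 mitotic genes that rose in M-MDSCs, and those of 2 MHC class II genes that fell in PMN-MDSCs. Each line gives the 150 bases before the RefSeq start of the gene (build GRCm38.p6, read 5′ to 3′ on the gene's strand). Il18r1 has 3 RefSeq windows, and the most upstream is shown. Capitals mark CCAAT, the box bound by NF-Y, and TTTGAA, the core of the cell cycle homology region, each searched on both strands, so that their complements ATTGG and TTCAAA are capitals too. In the printed stretches no match overlapped another.
Il18r1, chr1:40465402-40465551, plus strand: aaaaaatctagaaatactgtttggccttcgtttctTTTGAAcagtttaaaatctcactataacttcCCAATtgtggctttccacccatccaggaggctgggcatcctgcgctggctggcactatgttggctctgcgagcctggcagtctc
Kif23, chr9:61946800-61946949, minus strand: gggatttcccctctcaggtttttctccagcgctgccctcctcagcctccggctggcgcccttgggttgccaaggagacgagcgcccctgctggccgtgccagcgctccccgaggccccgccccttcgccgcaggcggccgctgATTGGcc
Bub1b, chr2:118598061-118598210, plus strand: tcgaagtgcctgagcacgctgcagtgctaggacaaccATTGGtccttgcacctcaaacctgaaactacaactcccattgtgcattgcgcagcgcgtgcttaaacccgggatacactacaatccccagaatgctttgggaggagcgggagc
Ccnb2, chr9:70421555-70421704, minus strand: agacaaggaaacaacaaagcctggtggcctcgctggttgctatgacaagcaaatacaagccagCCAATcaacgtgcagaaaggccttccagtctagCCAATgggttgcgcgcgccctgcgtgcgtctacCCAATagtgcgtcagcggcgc
Top2a, chr11:99024190-99024339, minus strand: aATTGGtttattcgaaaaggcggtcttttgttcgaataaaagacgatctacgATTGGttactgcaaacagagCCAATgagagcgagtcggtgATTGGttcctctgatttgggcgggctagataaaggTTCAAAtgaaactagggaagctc
H2-Aa, chr17:34287824-34287973, minus strand: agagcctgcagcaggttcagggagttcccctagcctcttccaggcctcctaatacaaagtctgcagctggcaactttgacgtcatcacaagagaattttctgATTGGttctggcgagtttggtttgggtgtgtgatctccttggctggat
H2-Ob, chr17:34238755-34238904, plus strand: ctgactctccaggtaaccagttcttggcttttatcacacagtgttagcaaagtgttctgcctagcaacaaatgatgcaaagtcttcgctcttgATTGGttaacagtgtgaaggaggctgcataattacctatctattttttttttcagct
The Il18r1 stretch held 1 match of each motif, 84 and 115 bases before the start for CCAAT and TTTGAA. The Ccnb2 stretch held 3 CCAAT boxes and the Top2a stretch 4, with a TTTGAA match 23 bases before the Top2a start. Over the whole RefSeq windows, which run from 250 bases before to 50 bases after the start, CCAAT was in 26 of 31 windows of the mitosis list and in 7 of 8 windows of the MHC class II list, against 37.4% of all 32851 windows. TTTGAA was in 24 of 31 mitosis windows and in 0 of 8 MHC class II windows, against 17.9% of all windows. Windows were found for 29 of 36 mitosis genes and 7 of 10 MHC class II genes, and a match describes letters, not binding.

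Il18r1, which encodes the chain of the interleukin-18 receptor that binds the cytokine, was the 1 gene of 12281 called in the interaction (0.00814%, limma, Benjamini-Hochberg adjusted p below 0.05, here named a call). It had 195, 131 and 197 normalized counts in lymphodepleted M-MDSCs and 704, 684 and 757 in untreated M-MDSCs. In PMN-MDSCs it had 471, 617 and 497 in lymphodepleted libraries and 514, 498 and 455 in untreated ones. The M-MDSC groups did not overlap and lay far apart, whereas the PMN-MDSC groups overlapped. Its mean was 174 ± 37.2 in lymphodepleted M-MDSCs and 715 ± 37.8 in untreated M-MDSCs (SD, n = 3 each). The interaction was -2.16 ± 0.27 (SE) on the log2 scale, with a 95% interval of -2.73 to -1.58 and an adjusted p of 0.0156. Il18r1 fell by 2.05 in M-MDSCs (adjusted p = 0.00037), and its PMN-MDSC change was 0.10 ± 0.19 (adjusted p = 0.826). M-MDSCs thus went below PMN-MDSCs after lymphodepletion (difference -1.61, adjusted p = 1.21e-05) but stood above them without it (0.55, adjusted p = 0.0289). Il18r1 lies at chr1:40465552-40500854 (GRCm38.p6).

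The Il18r1 call held in all 13 other settings tried, with adjusted p between 4.45e-10 and 0.0453. It was lost when 1 of 5 untreated libraries was left out: adjusted p was 0.0943, 0.0764 and 0.0537 without untreated M-MDSC library 1, 2 or 3, and 0.0722 and 0.0789 without untreated PMN-MDSC library 2 or 3. Il18rap, the accessory chain of the same receptor, was looked up after its values were seen. It averaged 290.3 ± 15.8 normalized counts in lymphodepleted M-MDSCs and 824 ± 103 in untreated M-MDSCs, and 3492 ± 492 in lymphodepleted PMN-MDSCs and 3560 ± 1134 in untreated PMN-MDSCs (SD, n = 3 each). Il18rap fell by 1.49 in M-MDSCs (adjusted p = 0.00228), with an interaction of -1.50 ± 0.29 that missed the threshold (adjusted p = 0.115). That interaction was called in 5 of the 13 other settings. Both receptor chains are also carried by natural killer (NK) and T cells, so the NK cell list stands beside them. Of its 17 tested genes 14 fell in M-MDSCs, against 1.78% of all genes. The list's summed level was 731 to 2333 in lymphodepleted M-MDSCs and 10860 to 14580 in untreated M-MDSCs. It was 522 to 1062 in lymphodepleted PMN-MDSCs and 1142 to 3541 in untreated PMN-MDSCs. Klra8 was at 0 in every group but untreated M-MDSCs. The part of NK cells in the Il18r1 result was not tested, and in bulk libraries fewer cells of a type and less RNA per cell cannot be told apart.

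Il18r1 included, 957 genes had an unadjusted p below 0.05 (616 above 0 and 341 below), where 614.05 would fall there by chance if no gene differed. The median interaction over all genes was 0.05. edgeR on the recovered reads called 3 genes and DESeq2 122, and the limma count ran between 0 and 9 when 1 library was left out (0 without untreated M-MDSC library 1, 2 or 3 or untreated PMN-MDSC library 2 or 3, 2 without lymphodepleted M-MDSC library 1, 9 and 4 without lymphodepleted PMN-MDSC library 2 or 3, and 5 without untreated PMN-MDSC library 1). The genes next in order are given as not called in the interaction by the main limma fit. Several were called within 1 cell type. These genes were picked by the interaction p, and each change within a cell type is a part of the interaction. Wide changes and groups that stand apart are thus partly built in.

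Below 0, the next genes fell in M-MDSCs and had smaller PMN-MDSC changes that did not pass the test. Of the 13 other settings, Zfp831 was called in the interaction in 8, Tbc1d10c in 7, Ugcg in 5 and Satb1 in 4. Ifitm10 was called in DESeq2 and with array weights. Tbc1d10c encodes carabin, an inhibitor of calcineurin and Ras signalling in lymphocytes. It had 155, 174 and 157 normalized counts in lymphodepleted M-MDSCs and 478, 480.1 and 545 in untreated M-MDSCs, and 2615, 1887 and 2299 in lymphodepleted PMN-MDSCs and 2824, 2092 and 1871 in untreated PMN-MDSCs. Its M-MDSC groups were apart and its PMN-MDSC groups overlapped, with an interaction of -1.64 ± 0.25 (adjusted p = 0.0725). Ugcg, glucosylceramide synthase, which starts the glycosphingolipid pathway, had 311, 239 and 323 in lymphodepleted and 1038, 1180 and 995 in untreated M-MDSCs, with an interaction of -1.61 ± 0.26 (adjusted p = 0.0725). Its PMN-MDSC groups, 646, 494 and 517 lymphodepleted and 633, 798 and 575 untreated, overlapped. Satb1, a chromatin organiser needed for T cell development, had 278, 250.4 and 256 in lymphodepleted and 718, 664 and 713 in untreated M-MDSCs, and an interaction of -1.14 ± 0.20 (adjusted p = 0.0795). Its PMN-MDSC values were 1067, 1297 and 1143 lymphodepleted and 1471, 1313 and 1451 untreated, also without overlap. Zfp831, a zinc finger gene, had 99.7, 94.0 and 109 in lymphodepleted and 382, 309 and 337 in untreated M-MDSCs and an interaction of -1.63 ± 0.26 (adjusted p = 0.0725). Within M-MDSCs alone, all 4 genes fell: Tbc1d10c by 1.62, Ugcg by 1.89, Satb1 by 1.41 and Zfp831 by 1.75, with adjusted p between 0.00037 and 0.000651. Such falls are partly built in, since the genes were picked by the interaction. Ifitm10, of the interferon-induced transmembrane family, had the widest interaction of these genes, -4.12 ± 0.77 (adjusted p = 0.111). It had 11.4, 2.43 and 11.5 normalized counts in lymphodepleted M-MDSCs and 101, 114 and 95.2 in untreated M-MDSCs, and 41.8, 50.1 and 85.7 and 27.2, 55.4 and 47.5 in lymphodepleted and untreated PMN-MDSCs.

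Above 0, 5 of the next 6 genes fell in PMN-MDSCs and had M-MDSC changes that did not pass the test. Among the 13 other settings, Rplp1 was called in the interaction in 4, Kdm2b, Pprc1 and Sema6b in 3 each and Apba1 in 2. Vav2 was called in DESeq2 and with array weights. Vav2, a guanine nucleotide exchange factor, had 120.3, 64.5 and 105 normalized counts in lymphodepleted PMN-MDSCs and 413, 570.1 and 374 in untreated PMN-MDSCs. Its M-MDSC values, 659, 754 and 410.3 lymphodepleted and 586, 392 and 577 untreated, overlapped. The Vav2 interaction was 2.45 ± 0.41 (adjusted p = 0.0795), and the PMN-MDSC change -2.24 ± 0.29 (adjusted p = 0.00228). Pprc1, a coactivator of the PGC-1 family that drives mitochondrial biogenesis, had 85.6, 63.7 and 70.2 in lymphodepleted and 156, 176 and 184 in untreated PMN-MDSCs, against the opposite order in M-MDSCs, 468, 455 and 365 lymphodepleted and 261, 327 and 336 untreated. Its interaction was 1.71 ± 0.30 (adjusted p = 0.0795), and it fell by 1.23 in PMN-MDSCs (adjusted p = 0.011).

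Rplp1, a protein of the ribosomal stalk, had 458, 321 and 531 normalized counts in lymphodepleted PMN-MDSCs and 1251, 1447 and 1090 in untreated PMN-MDSCs, without overlap, and an interaction of 1.45 ± 0.26 (adjusted p = 0.0976). Ribosomal protein genes have near-identical pseudogenes that can split reads, so this value is uncertain. Kdm2b, a histone demethylase that brings Polycomb complexes to CpG islands, had 98.9, 111 and 122 in lymphodepleted and 225, 269 and 188 in untreated PMN-MDSCs, and an interaction of 1.42 ± 0.27 (adjusted p = 0.113). Apba1, an adaptor that binds the amyloid precursor protein, had 36.7, 29.7 and 35.1 against 74.2, 113 and 68.3 in the same groups and an interaction of 1.60 ± 0.31 (adjusted p = 0.115). In these PMN-MDSC comparisons Rplp1 fell by 1.55, Apba1 by 1.28 and Kdm2b by 1.02, with adjusted p between 0.00175 and 0.014. Like those of Vav2 and Pprc1, these falls are partly built in by the choice of genes. Sema6b, a transmembrane semaphorin, differed from the others in that it rose in M-MDSCs, to 70.3, 121 and 107 in lymphodepleted libraries, against 22.2, 25.1 and 40.8 in untreated ones (change 1.74 ± 0.40, adjusted p = 0.0342, between 0.0194 and 0.189 with 1 library left out). The PMN-MDSC change of Sema6b was below 0 and not called. With 1 library left out it ran from -1.96 to -1.26 (limma, adjusted p between 0.0318 and 0.177). The Sema6b interaction was 3.29 ± 0.57 (adjusted p = 0.0795).

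**Figure D1:**
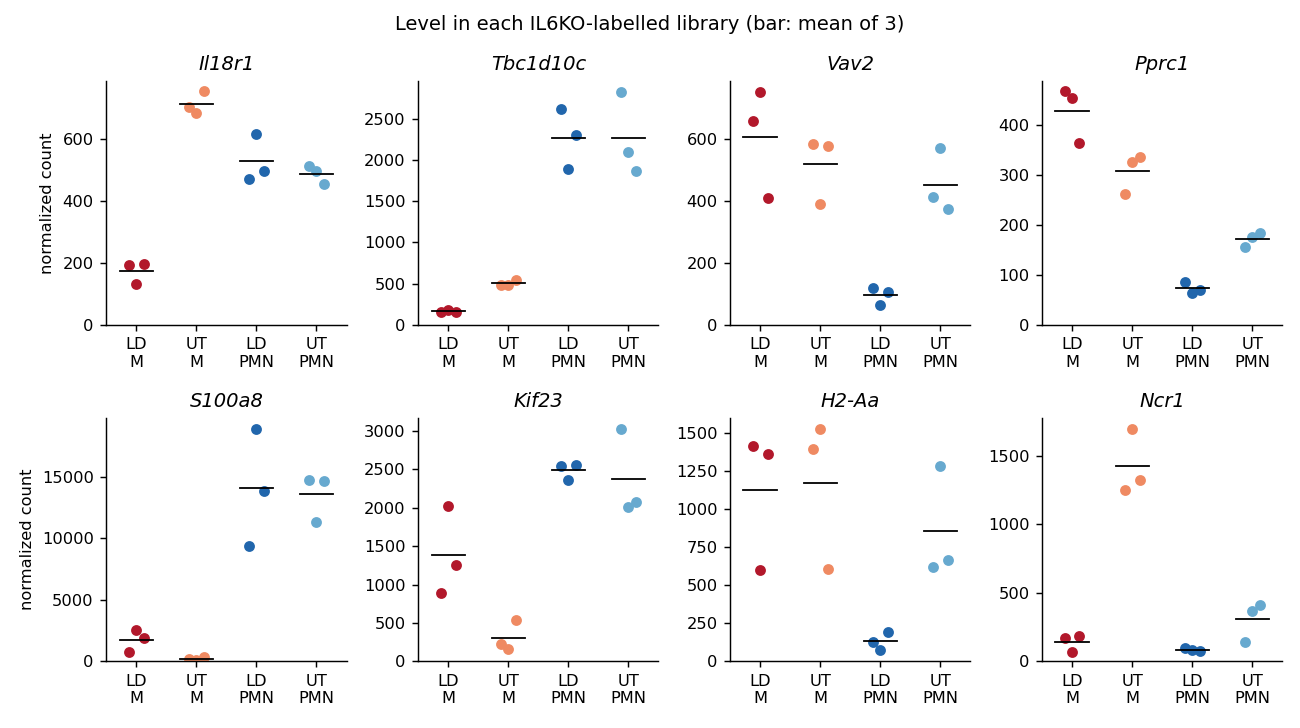
Normalized counts (linear axis from 0) of 8 genes in each of the 12 libraries labelled KO, 3 per group, with the group mean as a bar. Il18r1 is low in the 3 lymphodepleted M-MDSC libraries (131 to 197) against 684 to 757 in untreated M-MDSCs, while its PMN-MDSC libraries lie between 455 and 617.

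Taken cell type by cell type, lymphodepletion changed about as many genes in each. In M-MDSCs 163 genes rose (1.33% of 12281) and 218 fell (1.78%), and in PMN-MDSCs 37 rose (0.301%) and 284 fell (2.31%). Falls common to both numbered 67, which is 30.7% of the M-MDSC falls and 23.6% of the PMN-MDSC falls. Rises common to both numbered 2 (1.23% of the M-MDSC rises and 5.41% of the PMN-MDSC rises), and 0 genes were called in opposite directions. Genes called in 1 cell type mostly had the same sign in the other: 204 of the 218 M-MDSC falls lay below 0 in PMN-MDSCs (median -2.40 in M-MDSCs and -1.35 in PMN-MDSCs), and 149 of the 163 M-MDSC rises lay above 0 there (median 2.41 and 0.89). Of the 284 PMN-MDSC falls, 233 lay below 0 in M-MDSCs, with medians of -0.64 in M-MDSCs and -2.20 in PMN-MDSCs; because the sets were picked by the size of 1 of these changes, a smaller one in the other cell type is built in. As a description across genes, the M-MDSC and PMN-MDSC changes gave a Pearson coefficient of 0.462 and a Spearman coefficient of 0.359; they come from separate libraries.

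These counts leaned on single libraries and on how the spread is estimated. In M-MDSCs 84, 191, 78 and 72 genes were called without lymphodepleted M-MDSC library 2 or 3 or untreated M-MDSC library 1 or 2, against 381 with all. In PMN-MDSCs 138 and 139 were called without lymphodepleted or untreated PMN-MDSC library 2, and 211, 158, 159 and 188 without lymphodepleted M-MDSC library 1 or untreated M-MDSC library 1, 2 or 3, against 321 with all. With a spread of its own for each group, 1315 genes were called in M-MDSCs and 4 in PMN-MDSCs, so the PMN-MDSC calls below rest on a spread shared by the 4 groups.

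**Figure D2:**
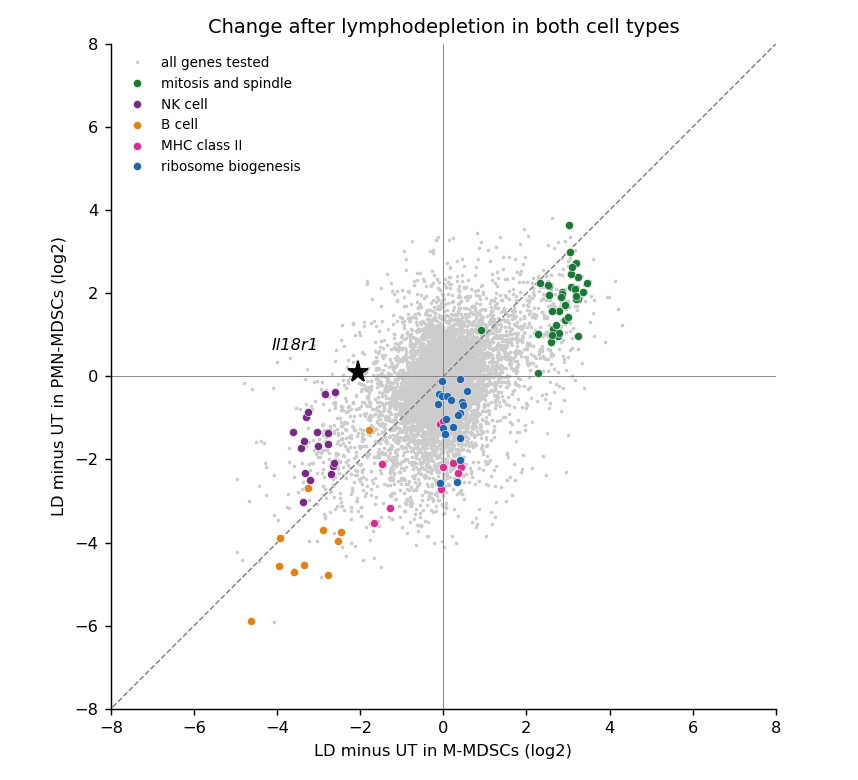
Lymphodepletion change (log2) in M-MDSCs (x axis) against that in PMN-MDSCs (y axis) for all 12281 genes, with members of 5 gene lists coloured and Il18r1 as a star. Mitosis genes lie above 0 in both cell types (36 of 36), all 12 B cell genes below 0 in both, and all 10 MHC class II genes below 0 in PMN-MDSCs, with 4 of them above 0 in M-MDSCs.

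Cell division genes rose in M-MDSCs. Of 36 tested genes of mitosis and the spindle, 16 rose in M-MDSCs and 0 fell, against 1.33% and 1.78% of all genes. There all 36 lay above 0, with a median change of 2.90. In PMN-MDSCs all 36 also lay above 0, with a median of 1.89, but 0 passed the test in limma. There 25 had an unadjusted p below 0.05, against 17.9% of all genes, and edgeR called 0 and DESeq2 4. The interaction lay above 0 for 34 of 36, with a median of 1.20 against 0.05 over all genes, and 0 members were called. At an unadjusted p below 0.05 were 2 of 36, against 7.79% of all genes, and edgeR called 0 and DESeq2 1. Kif23, a motor protein of the central spindle in cytokinesis, had 891, 2026 and 1258 normalized counts in lymphodepleted M-MDSCs and 231, 160.5 and 542 in untreated M-MDSCs. Its PMN-MDSC values, 2547, 2362 and 2551 lymphodepleted and 3029, 2014 and 2071 untreated, overlapped each other and lay above every M-MDSC library except lymphodepleted library 2. Kif23 rose by 2.27 in M-MDSCs (adjusted p = 0.00576), with an interaction of 2.17 ± 0.52 (adjusted p = 0.232). Bub1b, a kinase of the spindle checkpoint, had 969.9, 2176 and 1157 in lymphodepleted and 167, 109 and 560.2 in untreated M-MDSCs, without overlap, and 261, 897 and 358 in lymphodepleted and 173, 211 and 218 in untreated PMN-MDSCs. It rose by 2.63 in M-MDSCs (adjusted p = 0.0197). Aurka, the mitotic Aurora kinase A, rose by 2.59 (adjusted p = 0.0202), Ccnb2, cyclin B2, by 2.94 (0.024) and Top2a, the topoisomerase of dividing cells, by 2.94 (0.0491). Mki67, the proliferation marker, had 5911, 13686 and 11275 in lymphodepleted and 1359, 396 and 4357 in untreated M-MDSCs, and its change of 2.87 did not pass (adjusted p = 0.133).

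The number of called mitosis genes depended on single libraries. It was 1, 3, 1 and 1 without lymphodepleted M-MDSC library 2 or 3 or untreated M-MDSC library 1 or 2, 27 and 10 without lymphodepleted PMN-MDSC library 2 or 3, 8 without untreated PMN-MDSC library 2, and 31 without untreated M-MDSC library 3. The summed level of the list was 22480, 51930 and 35980 in lymphodepleted M-MDSCs and 4660, 2112 and 14640 in untreated M-MDSCs, so the untreated library 3 stood highest in its group yet below every lymphodepleted one. In PMN-MDSCs the sums ran from 10790 to 35730 in lymphodepleted libraries and from 4673 to 9491 in untreated ones. The mitosis genes called in M-MDSCs were 2 in edgeR, 19 in DESeq2 and 35 with a spread for each group.

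Some DNA replication and repair genes rose as well. The shares of all genes that rose were 1.33% in M-MDSCs and 0.301% in PMN-MDSCs. Of 30 replication genes, 7 rose in M-MDSCs (median 1.71, all 30 above 0) and 0 in PMN-MDSCs (median 0.67, 24 above 0), and 26 had an interaction above 0 (median 1.10). Cdc45, part of the replicative helicase, had 208, 404 and 271 normalized counts in lymphodepleted M-MDSCs and 25.5, 5.28 and 131 in untreated M-MDSCs, against 174, 188 and 149 and 121, 123 and 166 in lymphodepleted and untreated PMN-MDSCs, and rose by 3.34 in M-MDSCs (adjusted p = 0.0276). Of 20 crosslink repair and checkpoint genes, chosen because alkylating drugs crosslink DNA, 6 rose in M-MDSCs (median 2.15) and 0 in PMN-MDSCs (median 0.91). Clspn, claspin of the replication checkpoint, rose by 2.88 (adjusted p = 0.0125), Neil3, a DNA glycosylase that also unhooks crosslinks, by 3.94 (0.0287) and Brca2, the recombination mediator, by 2.06 (0.0321). Without lymphodepleted M-MDSC library 2, untreated M-MDSC library 1 or untreated M-MDSC library 2, 0 members of either list were called; without lymphodepleted M-MDSC library 3 it was 0 replication genes and 1 repair gene. It was 11 in each list without untreated M-MDSC library 3, and 2 replication genes and 3 repair genes without lymphodepleted PMN-MDSC library 1. Replication genes called were 4 without lymphodepleted PMN-MDSC library 3 or untreated PMN-MDSC library 2 or 3. In M-MDSCs edgeR called 0 replication genes and 1 repair gene, DESeq2 11 in each list, and a spread for each group 24 and 18. In PMN-MDSCs 1 replication gene and 2 repair genes were called without untreated PMN-MDSC library 2.

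S100a8, S100a9 and 6 of 21 secondary and tertiary granule genes also rose in M-MDSCs, where 1.33% of all genes did. Of 14 primary granule genes 0 were called higher there, though their median change was 2.27. S100a8, which with S100a9 forms calprotectin, the abundant cytosolic protein of neutrophils, had 759.9, 2588 and 1910 normalized counts in lymphodepleted M-MDSCs and 163, 100.4 and 353 in untreated M-MDSCs. In PMN-MDSCs it had 9410, 18862 and 13884 in lymphodepleted libraries and 14764, 11307 and 14635 in untreated ones. Every lymphodepleted M-MDSC library stood above every untreated one and below every PMN-MDSC library, and the PMN-MDSC groups overlapped. S100a8 rose by 3.11 in M-MDSCs (adjusted p = 0.00296) with a PMN-MDSC change of 0.00, and its interaction was 3.10 ± 0.64 (adjusted p = 0.146). The interactions of S100a8 and S100a9 were called in DESeq2 and with a replicate block by treatment and number. S100a9 rose by 2.78 in M-MDSCs (adjusted p = 0.00576), and its interaction was 3.02 ± 0.64 (adjusted p = 0.154; 0.0158 to 0.467 with 1 library left out).

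Of 21 secondary and tertiary granule genes, 6 rose in M-MDSCs and 0 in PMN-MDSCs, against 1.33% and 0.301% of all genes. The list's median changes were 0.46 and 0.65, and 15 interactions lay above 0 (median 0.79). Chi3l1, a chitinase-like protein of specific granules, had 34.2, 147 and 94.7 normalized counts in lymphodepleted M-MDSCs and 7.19, 7.26 and 25.8 in untreated M-MDSCs, against 998, 1962 and 1095 and 1296, 1072 and 2273 in lymphodepleted and untreated PMN-MDSCs. It rose by 2.70 (adjusted p = 0.0182). Lcn2, the iron-scavenging lipocalin of specific granules, rose by 2.41 (adjusted p = 0.0342), Camp, the cathelicidin peptide, by 3.42 (0.042) and Ltf, lactoferrin, by 3.33 (0.0484). Ngp missed the threshold at 3.17 (adjusted p = 0.0585). All 6 calls were lost without lymphodepleted M-MDSC library 2 or 3 or untreated M-MDSC library 1 or 2, and the count was 3 without lymphodepleted PMN-MDSC library 3 or untreated PMN-MDSC library 2. Of 14 primary granule genes, which are made at the promyelocyte stage, 0 were called higher in M-MDSCs or PMN-MDSCs. Their median changes were 2.27 and 0.68 in that order. In M-MDSCs 11 lay above 0 and 7 had an unadjusted p below 0.05, and in PMN-MDSCs 9 and 6. Nkg7, also an NK cell gene, fell in both (in PMN-MDSCs not without library 2 of either PMN-MDSC group). With a spread for each group 6 rose in M-MDSCs, and without untreated M-MDSC library 3 it was 4. The primary granule enzymes Mpo and Elane changed by 2.67 ± 0.93 and 2.56 ± 1.09 in M-MDSCs (adjusted p = 0.166 and 0.293).

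Mature neutrophil markers stand beside these rises, since PMN-MDSCs are the other cell in the sort. In M-MDSCs 2 of 20 members rose, S100a8 and S100a9 themselves, against 1.33% of all genes, and 4 rose without untreated M-MDSC library 1. The median change over the list was 0.11. The list's summed level was 7678 to 12600 in lymphodepleted M-MDSCs and 5498 to 7045 in untreated M-MDSCs, against 130700 to 189400 in lymphodepleted PMN-MDSCs and 156300 to 207000 in untreated PMN-MDSCs. Csf3r, the G-CSF receptor, changed by 0.05 and Cxcr2 by 1.66 in M-MDSCs (adjusted p = 0.986 and 0.0884). The part of PMN-MDSCs in the M-MDSC libraries was not tested.

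MHC class II genes, which present antigen to helper T cells, fell in PMN-MDSCs. Of 10 tested genes 6 fell in PMN-MDSCs and 1 in M-MDSCs, against 2.31% and 1.78% of all genes. Median changes were -2.18 in PMN-MDSCs and -0.04 in M-MDSCs, and all 10 interactions lay above 0 (median 2.04, against 0.05 over all genes). None was called in the interaction by limma without a replicate block or by edgeR, and DESeq2 called 2. In that limma fit 6 had an unadjusted p below 0.05, against 7.79% of all genes. H2-Aa, the class II alpha chain, had 129, 75.6 and 189.9 normalized counts in lymphodepleted PMN-MDSCs and 621, 1284 and 664 in untreated PMN-MDSCs, without overlap. Its M-MDSC values, 1412, 597 and 1363 lymphodepleted and 1391, 1526 and 604 untreated, overlapped. H2-Aa fell by 2.71 in PMN-MDSCs (adjusted p = 0.0069), with an interaction of 2.65 ± 0.62 (adjusted p = 0.208). Ciita, the master regulator of class II transcription, had 222, 59.4 and 152 in lymphodepleted and 504, 873 and 592 in untreated PMN-MDSCs, again without overlap, and fell by 2.33 (adjusted p = 0.0125). H2-Ob, of the class II loading modulator found in B cells, fell by 3.53 (adjusted p = 0.00652). H2-DMb2, of the peptide loading complex, fell by 2.10 in PMN-MDSCs (adjusted p = 0.00431) and by 1.47 in M-MDSCs (0.0229), though it is close in sequence to H2-DMb1 and shared reads could be split. The count in PMN-MDSCs was 3 without untreated PMN-MDSC library 2 and 0 with a spread for each group. That in M-MDSCs was 0 without lymphodepleted M-MDSC library 2 or 3 or untreated M-MDSC library 1 or 2, and 2 without lymphodepleted PMN-MDSC library 2.

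Other antigen-presenting cells carry the same genes, so their markers stand beside them. The share of all genes that fell in PMN-MDSCs was 2.31%. All 12 tested B cell genes fell in PMN-MDSCs, and the B cell sum was 377 to 647 in lymphodepleted PMN-MDSCs and 2229 to 4300 in untreated PMN-MDSCs. The MHC class II sum was 837 to 2613 in lymphodepleted PMN-MDSCs and 5917 to 12190 in untreated PMN-MDSCs. Of 15 dendritic cell genes 3 fell in PMN-MDSCs: Kmo, of tryptophan breakdown, by 2.25 (adjusted p = 0.00366), and the transcription factors Irf4 and Batf3 by 2.72 and 2.59 (0.0128 and 0.0375). The dendritic count was 1 without untreated PMN-MDSC library 2, and Irf4 is also a plasma cell gene. The part of B cells and dendritic cells in the class II result was not tested.

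Myc and 2 other ribosome biogenesis genes of 20, Fbl and Nolc1, fell in PMN-MDSCs as well, where 2.31% of all genes did. Myc, the growth-promoting transcription factor, had 12.2, 26.3 and 15.5 normalized counts in lymphodepleted PMN-MDSCs and 109, 144 and 72.2 in untreated PMN-MDSCs, and 141, 149.9 and 212 and 112, 92.5 and 214 in lymphodepleted and untreated M-MDSCs. The PMN-MDSC groups were apart and the M-MDSC groups overlapped. Myc fell by 2.54 in PMN-MDSCs (adjusted p = 0.00702), with an interaction of 2.87 ± 0.58 (adjusted p = 0.141). Of 20 ribosome biogenesis genes, Myc included, all 20 interactions lay above 0 (median 1.12). At an unadjusted p below 0.05 were 11, against 7.79% of all genes, and limma and edgeR called 0 and DESeq2 4. In PMN-MDSCs 3 fell and all 20 lay below 0 (median -0.78), whereas in M-MDSCs 0 passed and 14 lay above 0 (median 0.20). Fbl, fibrillarin, which methylates ribosomal RNA, had 17.3, 17.8 and 65.0 in lymphodepleted and 86.5, 162 and 105 in untreated PMN-MDSCs and fell by 2.02 (adjusted p = 0.0245). Nolc1, a nucleolar chaperone, fell by 1.23 (0.0307). The summed level was 4846 to 5999 in lymphodepleted PMN-MDSCs and 6746 to 9692 in untreated PMN-MDSCs, without overlap. The count of falls was 1 without PMN-MDSC library 2 of either group and 5 without untreated PMN-MDSC library 1, 2 in edgeR and 0 with a spread for each group.

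**Figure D3:**
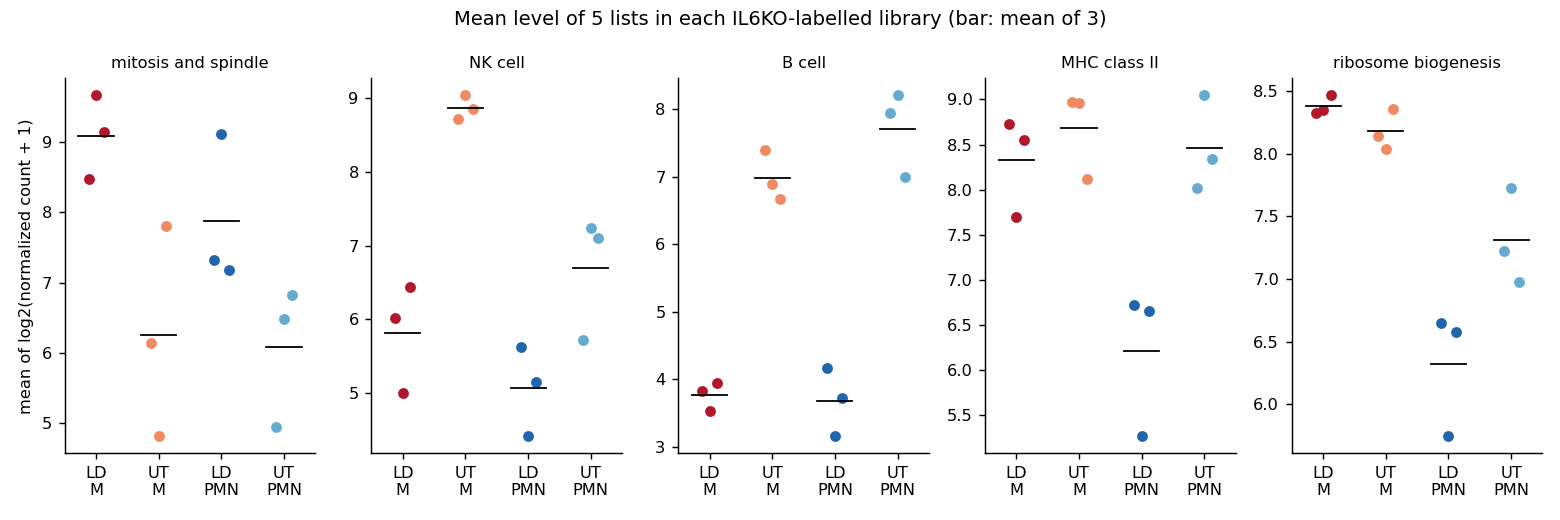
Mean log2(normalized count + 1) of 5 gene lists in each of the 12 libraries labelled KO, by group. The mitosis mean is higher in all 3 lymphodepleted than in all 3 untreated M-MDSC libraries, and the MHC class II mean is lower in all 3 lymphodepleted than in all 3 untreated PMN-MDSC libraries.

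Lymphocyte genes fell in both cell types. In M-MDSCs 14 of 17 NK cell genes fell (median -3.03) and in PMN-MDSCs 5 (median -1.63), against 1.78% and 2.31% of all genes. Of 17 interactions 0 lay above 0 (median -1.41) and none was called by limma, edgeR or DESeq2. At an unadjusted p below 0.05 were 5, against 7.79% of all genes. Ncr1, the NK activating receptor NKp46, had 171, 70.5 and 183 normalized counts in lymphodepleted M-MDSCs and 1248, 1694 and 1321 in untreated M-MDSCs, and 96.8, 80.7 and 73.3 and 141, 371 and 414 in lymphodepleted and untreated PMN-MDSCs. Neither pair of groups overlapped, and untreated M-MDSCs stood highest. Ncr1 fell by 3.42 in M-MDSCs (adjusted p = 0.000887) and by 1.73 in PMN-MDSCs (0.0385), with an interaction of -1.69 ± 0.57 (adjusted p = 0.468). Prf1, perforin, fell by 3.63 in M-MDSCs (0.0023), and Tbx21 and Eomes, the transcription factors of NK and effector T cells, by 3.20 and 2.77 (0.00719 and 0.00463). The M-MDSC count was 5, 8 and 4 without lymphodepleted M-MDSC library 2 or untreated M-MDSC library 1 or 2. The PMN-MDSC count was 0 without lymphodepleted PMN-MDSC library 2 or untreated PMN-MDSC library 2 or 3, 11 without untreated PMN-MDSC library 1, 1, 1 and 2 without untreated M-MDSC library 1, 2 or 3, and 3 without lymphodepleted M-MDSC library 3.

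B cell genes had the larger falls in PMN-MDSCs by their medians, with no called difference between the cell types. All 12 tested members fell in each cell type, against 1.78% of all genes in M-MDSCs and 2.31% in PMN-MDSCs. The medians were -3.31 in M-MDSCs and -4.25 in PMN-MDSCs. Of the interactions 9 lay above 0 (median 1.11, or 0.61 with quantile normalization). At an unadjusted p below 0.05 were 2, against 7.79% of all genes, and limma, edgeR and DESeq2 called 0. Cd22, an inhibitory receptor of B cells, had 81.7, 39.7 and 60.3 normalized counts in lymphodepleted and 438, 296 and 263 in untreated M-MDSCs, and 42.8, 38.2 and 42.3 in lymphodepleted and 618, 748 and 393 in untreated PMN-MDSCs, without overlap in either. Pax5, the B cell identity factor, fell by 3.60 in M-MDSCs and 4.71 in PMN-MDSCs (adjusted p = 0.00254 and 0.000811). The summed B cell level was 227 to 280 in lymphodepleted M-MDSCs and 1472 to 2296 in untreated M-MDSCs, and Vpreb3 was at 0 in both lymphodepleted groups. The M-MDSC count was 7, 5 and 7 without lymphodepleted M-MDSC library 2 or untreated M-MDSC library 1 or 2, and the PMN-MDSC count 2 with a spread for each group. Of 17 T cell genes 6 fell in M-MDSCs and 4 in PMN-MDSCs (medians -2.10 and -1.92), and of the 8 Gimap genes, GTPases that support lymphocyte survival, 8 fell in M-MDSCs and 3 in PMN-MDSCs (medians -2.64 and -1.92). T cell counts were 2 in M-MDSCs without lymphodepleted M-MDSC library 2 or untreated M-MDSC library 1 or 2, and 1 in PMN-MDSCs without library 2 of either PMN-MDSC group. The Gimap count in PMN-MDSCs was 5 without lymphodepleted M-MDSC library 2 or lymphodepleted PMN-MDSC library 1.

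Scd1, the desaturase that makes monounsaturated fatty acids, shows a gene that fell in both cell types with no called difference between them. It had 4.75, 1.62 and 9.05 normalized counts in lymphodepleted and 232, 162 and 121 in untreated M-MDSCs, and 14.3, 9.34 and 11.4 in lymphodepleted and 277, 336 and 133 in untreated PMN-MDSCs. No library of a lymphodepleted group reached its untreated group. Scd1 fell by 4.97 in M-MDSCs and 4.22 in PMN-MDSCs (adjusted p = 0.000638 and 0.00222), with an interaction of -0.75 ± 0.76 (95% interval -2.39 to 0.88).

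Genes of IL-6 signalling showed no called interaction, as did all but 1 of the 12281 genes tested (0.00814% called). Of 22 tested IL-6 and STAT3 genes, 10 interactions lay above 0, with a median of -0.07. At an unadjusted p below 0.05 were 3 of the 22, against 7.79% of all genes, and limma, edgeR and DESeq2 called 0. The receptor chain Il6ra had an interaction of 0.11 ± 0.28 (95% interval -0.50 to 0.71), the shared signalling chain Il6st 1.44 ± 0.51 (0.36 to 2.53), Stat3 -0.14 ± 0.30 (-0.78 to 0.50) and its feedback inhibitor Socs3 -0.19 ± 0.64 (-1.56 to 1.17). Jak1, a kinase of the receptor, was the member called in M-MDSCs, with 2040, 1787 and 2274 normalized counts in lymphodepleted and 4124, 4440 and 3447 in untreated libraries, a fall of 0.98 (adjusted p = 0.00878) that was lost without lymphodepleted M-MDSC library 2 or untreated M-MDSC library 1 or 2. Il21r, the receptor of interleukin-21, was the member called in PMN-MDSCs, where it fell by 2.97 (adjusted p = 0.0103). The shares of all genes that fell were 1.78% in M-MDSCs and 2.31% in PMN-MDSCs. Without library 3 of the untreated M-MDSCs or of the untreated PMN-MDSCs, 2 members were called in that cell type.

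No receptor or transcription factor of myeloid fate was called in the interaction, where 1 of all 12281 genes was (0.00814%). The interaction was 0.06 ± 0.45 for Csf1r, the M-CSF receptor, 0.36 ± 0.41 for Csf3r, -0.27 ± 0.69 for Ccr2, -1.02 ± 0.60 for the monocyte antigen Ly6c2 and 2.10 ± 0.69 for Cxcr2 (adjusted p = 0.444). Irf8 and Klf4, which drive monocyte fate, had 0.57 ± 0.50 and 0.53 ± 0.48, and Gfi1 and Cebpe, which drive granulocyte fate, -0.37 ± 0.68 and 0.50 ± 1.22. Of 22 fate transcription factors, 3 fell in M-MDSCs (Ets1, Klf2 and Bach2) and 1 in PMN-MDSCs (Bach2). Over all genes 1.78% fell in M-MDSCs and 2.31% in PMN-MDSCs. Of the interactions of the fate factors 14 lay above 0 (median 0.32). At an unadjusted p below 0.05 were 7, 3 above 0 and 4 below, against 7.79% of all genes, and edgeR called 0 and DESeq2 1. Klf2, a quiescence factor, had 1424, 911 and 958 normalized counts in lymphodepleted and 3007, 2578 and 2037 in untreated M-MDSCs, and fell by 1.22 (adjusted p = 0.0199). Bach2, a repressor best known in lymphocytes, fell by 1.29 in M-MDSCs and 2.30 in PMN-MDSCs (0.0491 and 0.0039). The M-MDSC count was 1 without lymphodepleted M-MDSC library 2 or 3 and 0 without untreated M-MDSC library 1 or 2, and the PMN-MDSC count 4 and 2 without lymphodepleted PMN-MDSC library 1 or 3. Bcl2, the survival factor, fell by 1.38 and Fasl, the Fas ligand, by 2.84 in M-MDSCs (adjusted p = 0.0104 and 0.0405). Both are also lymphocyte genes, and the 2 calls became 0 or 1 without lymphodepleted M-MDSC library 1, 2 or 3, lymphodepleted PMN-MDSC library 1 or 3, or untreated M-MDSC library 1, 2 or 3.

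Over all 38 lists, which held 628 distinct tested genes, limma called 0 interactions, edgeR 0 and DESeq2 20. At an unadjusted p below 0.05 were 89 (69 above 0 and 20 below), against 7.79% of all genes. Lists at the lower end were NK cell (median -1.41), Gimap (-0.73) and non-classical monocyte (-0.40), and lists at the upper end MHC class II (2.04), stem and progenitor (1.22), red pulp macrophage (1.21) and mitosis (1.20). The stem and progenitor list had 13 of 15 interactions above 0 but 0 called, with Erg, an endothelial and stem cell factor, the member that rose in M-MDSCs (4.19, adjusted p = 0.0229; lost without lymphodepleted M-MDSC library 2 or 3 or untreated M-MDSC library 1 or 2, with 3 members called without lymphodepleted PMN-MDSC library 2 and 5 without untreated M-MDSC library 3). Among pyrin-HIN genes, sensors of DNA, 3 of 10 fell in PMN-MDSCs and 0 in M-MDSCs, against 2.31% and 1.78% of all genes. The 3 were Ifi203, Pyhin1 and Mndal, and 1 was called without untreated PMN-MDSC library 3. The list had a median interaction of 0.42. Pyrin-HIN genes lie side by side and resemble each other, so shared reads could be split.

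Lists of other myeloid cells are set beside the shares over all genes. Called were 1.33% higher and 1.78% lower in M-MDSCs, and 0.301% higher and 2.31% lower in PMN-MDSCs. Of 20 classical monocyte genes, 0 passed in M-MDSCs and 2 fell in PMN-MDSCs, Ly86, the partner of the receptor RP105, by 1.90 and Ctss, cathepsin S of antigen processing, by 1.34 (adjusted p = 0.0123 and 0.0464); the count was 1 when untreated M-MDSC library 1, 2 or 3, untreated PMN-MDSC library 2 or 3, lymphodepleted M-MDSC library 1 or 3 or lymphodepleted PMN-MDSC library 2 was left out. All 15 red pulp macrophage genes had an interaction above 0, with median changes of -0.19 in M-MDSCs and -0.92 in PMN-MDSCs, and 0 were called in either. Non-classical monocyte genes had medians of -0.96 and -0.64 in the same order, with 0 called, or 5 falls in M-MDSCs without untreated M-MDSC library 3. All 16 lay below 0 in both cell types. At an unadjusted p below 0.05 were 10 in M-MDSCs and 3 in PMN-MDSCs, against 14.5% and 17.9% of all genes. Hdc, the histamine-making enzyme of mast cells and basophils, rose by 1.93 in M-MDSCs (adjusted p = 0.0162), a call lost without lymphodepleted M-MDSC library 2 or untreated M-MDSC library 1 or 2. Without lymphodepletion Hdc was called lower in M-MDSCs than in PMN-MDSCs. Its eosinophil, basophil and mast cell list summed to 213 to 357 in lymphodepleted M-MDSCs and 4869 to 8094 in lymphodepleted PMN-MDSCs. Ear6, Cpa3, Fcer1a, Il4 and Cd200r3 of that list were at 0 in lymphodepleted M-MDSCs.

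Stress and metabolism lists had median interactions near that of all genes. Among all genes 1.78% fell in M-MDSCs and 2.31% in PMN-MDSCs. Type I interferon response genes had a median interaction of -0.05, with 3 of 28 falling in M-MDSCs and 1 in PMN-MDSCs, but 0 in M-MDSCs when any of 6 libraries was left out (lymphodepleted M-MDSC library 2, lymphodepleted PMN-MDSC library 1 or 3, untreated M-MDSC library 1 or 2, or untreated PMN-MDSC library 2) and 1 without lymphodepleted M-MDSC library 3 or untreated PMN-MDSC library 3. The PMN-MDSC call, Mx1, an antiviral GTPase, fell by 1.33 (adjusted p = 0.0418) and was lost in 10 of the 12 fits with 1 library left out, all but those without lymphodepleted M-MDSC library 1 or lymphodepleted PMN-MDSC library 1. edgeR called 0 in either cell type. Of 19 p53 target genes 1 fell in M-MDSCs, Trp53inp1, a stress-induced regulator of autophagy, by 1.16 (adjusted p = 0.00551), and the count was 3 without lymphodepleted M-MDSC library 1. Of 21 unfolded protein response genes 2 fell in PMN-MDSCs, Pdia4, a disulphide isomerase of the endoplasmic reticulum, by 1.99 and Sdf2l1, a cofactor of its chaperones, by 3.32 (adjusted p = 0.00555 and 0.0283); 1 was called without untreated M-MDSC library 1 or untreated PMN-MDSC library 2 or 3. The plasma cell list, whose cells are rich in that machinery, had 2 of 8 genes falling in each cell type, and its part in these values was not tested. Its M-MDSC count was 0 without lymphodepleted M-MDSC library 2 or untreated M-MDSC library 1 or 2 and 1 without lymphodepleted M-MDSC library 1 or untreated M-MDSC library 3, and its PMN-MDSC count 0 without untreated PMN-MDSC library 2. Respiratory chain, NADPH oxidase and erythroid genes had 0 calls in either cell type, with median interactions of 0.16, -0.20 and 0.14.

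**Figure D4:**
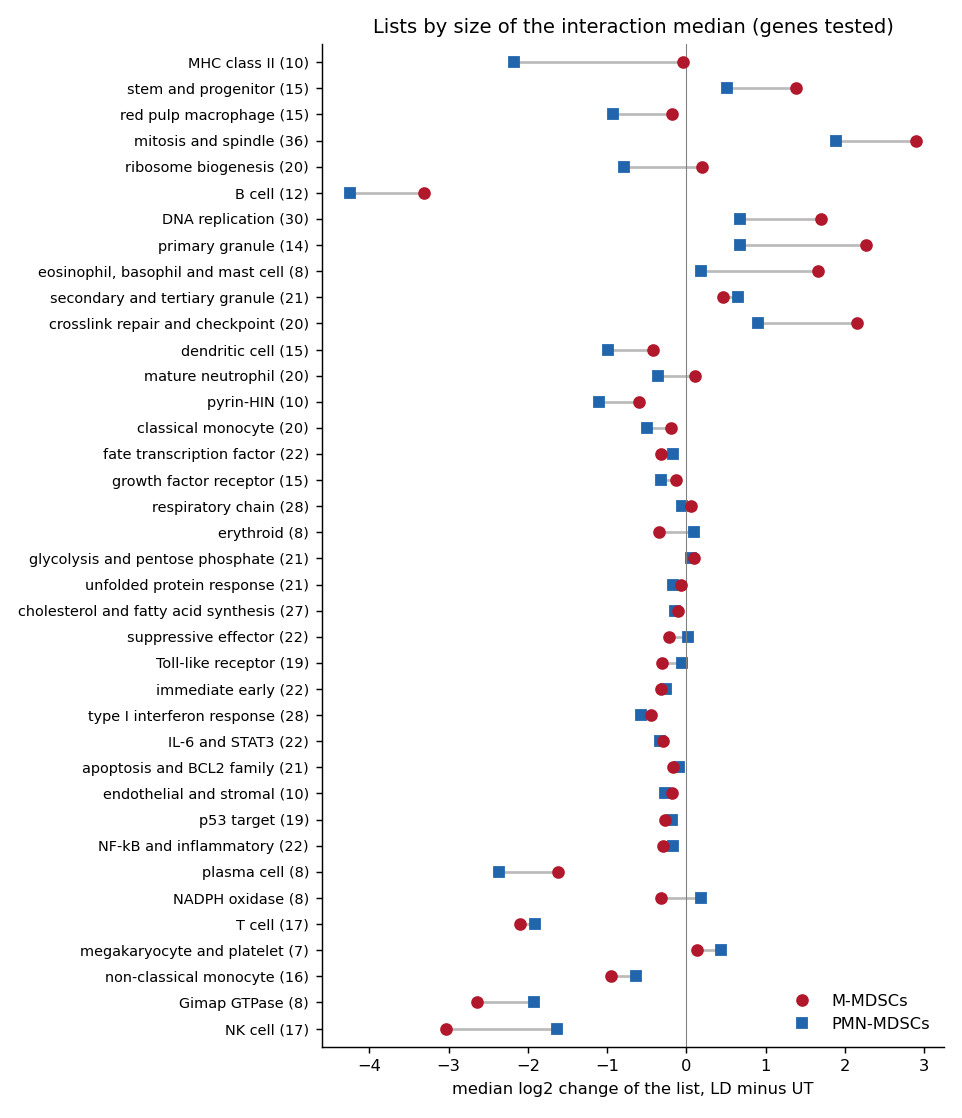
Median lymphodepletion change (log2) of 38 gene lists in M-MDSCs (red dots) and PMN-MDSCs (blue squares), ordered by the median interaction. The MHC class II list is at -0.04 in M-MDSCs and -2.18 in PMN-MDSCs, and the NK cell list at -3.03 and -1.63.

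Read the other way, the interaction is the gap between the cell types after lymphodepletion minus the gap without it. M-MDSCs and PMN-MDSCs differed at 6304 genes after lymphodepletion (51.3% of 12281; 3231 higher and 3073 lower in M-MDSCs) and at 5759 genes without it (46.9%; 2790 and 2969). With libraries scaled to their total counts, Rn45s and Malat1 left out of the totals, the splits were 5108 and 1850 after lymphodepletion. Without it they were 5203 and 1730. In the deposited scaling 4606 genes were called in the same direction in both states, which is 73.1% of the first set and 80.0% of the second, and 7 in opposite directions, Il18r1 among them. The median absolute gap was 1.0 after lymphodepletion and 0.90 without it, and 54.9% of genes had the larger gap after lymphodepletion.

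In libraries labelled WT, the Il18r1 interaction was also negative and was called. From 1 fit of all 24 libraries and 13457 genes, it was -2.16 in libraries labelled KO and -2.54 ± 0.27 in libraries labelled WT (adjusted p = 3.87e-05), and the difference between the labels was 0.38 ± 0.39 (adjusted p = 0.917). Il18r1 ranged over 47.4 to 82.1 normalized counts in lymphodepleted and 236 to 276 in untreated M-MDSCs labelled WT, and over 534 to 619.6 and 387 to 419 in lymphodepleted and untreated PMN-MDSCs labelled WT. The fit called 13 interactions in libraries labelled KO (0.0966%; 5 above 0 and 8 below) and 106 in those labelled WT (0.788%; 79 and 27). No gene was called for a difference between the labels (0 of 13457, 0%), where 812 had an unadjusted p below 0.05, edgeR called 0 and DESeq2 7. It was 1 gene without untreated PMN-MDSC library 1 labelled KO or lymphodepleted PMN-MDSC library 1 labelled WT, and 3 without lymphodepleted PMN-MDSC library 3 labelled WT. The labels' interactions rest on separate libraries and had a Pearson correlation of 0.260 and a Spearman correlation of 0.242 across genes.

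The 5 genes above 0 in libraries labelled KO were Hap1, Kdm2b, Myc, Pprc1 and Rplp1, with 4 of 5 above 0 under the WT label, and the 8 below 0 were Dab2ip, Il18r1, Il18rap, Mcam, Satb1, Tbc1d10c, Ugcg and Zfp831, with 7 of 8 below 0 there. Called under both labels were 2 genes, both below 0. Of the 79 genes above 0 under the WT label 69 had the same sign under the KO label (medians 0.80 in libraries labelled KO and 2.5 in those labelled WT), and of the 27 below 0, 25 (-0.76 and -1.82). Because these sets were picked by the WT value, the smaller KO value is partly built in. Pprc1 and Tbc1d10c were of opposite sign, with differences between the labels of 2.25 ± 0.45 and -2.02 ± 0.46 (adjusted p = 0.287 and 0.542). The interaction of Kif23 was 2.17 ± 0.52 in libraries labelled KO and 3.40 ± 0.46 in those labelled WT, that of S100a8 3.10 ± 0.64 and 4.0 ± 0.79, and that of Cxcr2 2.10 ± 0.69 and 3.85 ± 0.68; the WT values were called (adjusted p = 0.000382, 0.016 and 0.00827), and the differences between the labels were not (-1.22 ± 0.64, -0.90 ± 1.11 and -1.75 ± 0.96). Among the lists, ribosome biogenesis had a median interaction of 1.12 in libraries labelled KO and 0.02 in those labelled WT, MHC class II 2.04 and 1.19, mitosis 1.20 and 1.59, NK cell -1.41 and -1.23, and mature neutrophil 0.65 and 1.41, against 0.06 and 0.16 over all 13457 genes.

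**Figure D5:**
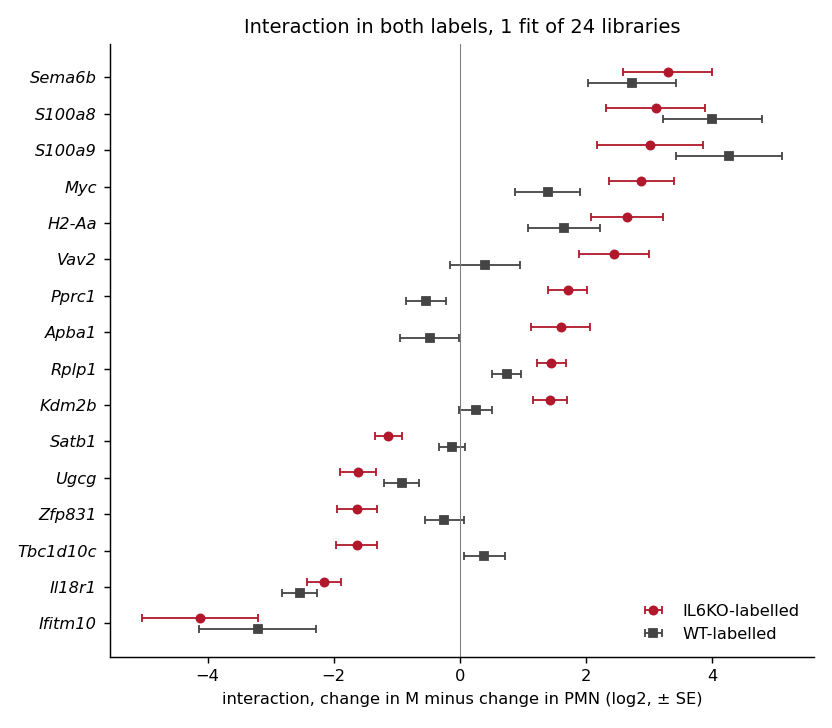
Interaction (log2) with its standard error for 16 genes in libraries labelled KO and WT, from 1 fit of 24 libraries. Il18r1 is at -2.16 and -2.54, while Pprc1 and Tbc1d10c lie on opposite sides of 0 under the labels.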

How the data were processed

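Total RNA (100 ng) of sorted splenic M-MDSCs and PMN-MDSCs was made into rRNA-depleted libraries with the NuGen Ovation Mouse RNA-seq kit, per the labels' protocols. The submitters' processing notes name STAR 2.5.3a, HTSeq 0.6.1, DESeq2 and build mm10. The authors deposited normalized counts per gene, a signal made by dividing reads by a factor per library; the values came out as whole reads within a tolerance of 0.001 reads, and these recovered reads served only for depth and for the edgeR and DESeq2 alternatives. Depth limits low genes, and the intervals given cover the spread between libraries.

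Values were put on log2(normalized count + 1) after the filter of 10 in at least 3 libraries. limma 3.58.1 (R 4.3.3) fitted 1 mean per group with a trended prior over all 12281 genes, and Benjamini-Hochberg adjusted p below 0.05 was a call. Another fit over all 24 libraries compared the labels. edgeR 4.0.16, DESeq2 1.42.0, other pseudocounts, filters, scalings, weights, replicate blocks and leaving out each library were alternatives. Total-count scaling left Rn45s and Malat1 out of the totals. That scaling and the list counts without each library were added after seeing the data. The main limma fit and the edgeR and DESeq2 fits of the 12 libraries were run on simulated counts with known changes. The fit of all 24 libraries and the other alternatives were not.

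The genes named were 33 key genes where tested, the 12 widest called interactions in each direction with a group mean of at least 100 (filled up to 6 with the smallest unadjusted p, as not called), and up to 4 called or 2 uncalled members of each list. Il18rap, Hap1, Dab2ip and Mcam lie outside this rule and were named after their values were seen. The members, lists and tests were chosen with earlier results of these data known. Replicate numbers were not taken to pair libraries, since 2 of 6 same-numbered pairs of M-MDSC and PMN-MDSC libraries correlated above 0.1. Start sites and promoter windows came from RefSeq tables of GRCm38.p6, with 12229 of the tested genes matched.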

Additional observations from a re-analysis of the deposited data

Results flagged for a closer look

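The lymphodepletion change of Il18r1 differed between the cell types by the interaction test itself, at -2.16 ± 0.27 on the log2 scale (limma, adjusted p = 0.0156). It was 2.05 lower in lymphodepleted than in untreated M-MDSCs, with all 3 libraries below, and 0.10 higher in PMN-MDSCs, whose groups overlapped. NK cell genes were lower in the same lymphodepleted M-MDSC libraries, and their part in the result was not tested.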

How the results depend on the processing

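The called interactions numbered 9 with quantile normalization, 3 in edgeR, 122 in DESeq2, 13 with all 24 libraries in 1 fit, 20 with array weights and 4 with total-count scaling, against 1; leaving out 1 library gave 0 to 9. The M-MDSC count was 248 with no filter, 613 with quantile normalization, 246 in edgeR, 751 in DESeq2, 1717 with array weights and 1315 with a spread for each group, against 381, and 72 to 551 without 1 library. The PMN-MDSC count was 778 in DESeq2, 161 with array weights, 4 with a spread for each group and 149 with total-count scaling, against 321, and 138 to 383 without 1 library. For the difference between labels DESeq2 called 7, and 0 to 3 were called without 1 library, against 0. With a replicate block by treatment and number 17 interactions were called, among them Ciita, H2-Aa, H2-Eb1, H2-Ab1 and Cd74 of the MHC class II list and S100a8, S100a9 and Chi3l1, none of which was called in the limma results of the report, fitted without a block; by number alone it was 2; all 3 lymphodepleted pairs and 0 untreated pairs correlated best with their own number, a hint from the data only. The block by treatment and number gives no value for a change within a cell type, since it absorbs treatment. A replicate block by genotype, treatment and number called 0 differences between labels. The cause of these shifts was not tested.

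No called value of a named gene changed sign, but uncalled ones did. Interactions near 0 that crossed it were Il6 (-0.12), Il6ra (-0.050), Csf3r (-0.00098), Cdkn1a (0.12), Csf1r (-0.27) and Ccr2 (0.040) with array weights, Csf1r with quantile normalization (-0.00065), and Csf1r (-0.086 and -0.047), Ccr2 (0.15 and 0.13) and Nos2 (-1.93 and -1.31) in edgeR and DESeq2. The PMN-MDSC change of Zfp831 was 0.052 with array weights. Without 1 library, interactions ran from -0.19 to 0.70 for Il6, -0.070 to 0.22 for Il6ra, -0.34 to 0.017 for Stat3, -0.61 to 0.14 for Socs3, -0.031 to 2.0 for Mki67, -0.54 to 1.58 for Cebpe, -0.78 to 0.042 for Gfi1, -0.34 to 0.34 for Csf1r, -0.74 to 0.52 for Ccr2, -0.41 to 0.29 for Fas and -0.61 to 0.27 for Cdkn1a. PMN-MDSC changes ran from -0.013 to 0.18 for Il18r1, -0.11 to 0.18 for Tbc1d10c, -0.26 to 0.053 for Zfp831, -0.24 to 0.26 for S100a8 and -0.48 to 0.040 for S100a9. Of 63 named M-MDSC calls 25 were kept without each library in turn and 39 in every other setting. Of 48 named PMN-MDSC calls 23 were kept without each library and 2 in every other setting.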
